A study of Sus scrofa with 30 samples.

Results

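The sequences described here were the 37 small RNAs of miR-10a, miR-10b and miR-196b in pig endometrium, beside 836 other annotated sequences in the authors' list. They were chosen by name, as every listed sequence with the root mir-10a, mir-10b, mir-196a or mir-196b, and were counted by exact match in the deposited reads of each library. miR-10a had 22 of them (21 of the 5′ arm and 1 of the 3′ arm), miR-10b had 11 and miR-196b had 4. No listed sequence had the root mir-196a. The list held 4 canonical forms and 33 isomiRs, which are length variants of a miRNA with bases missing (DEL) or added (ADD) at the 5′ or the 3′ end. Of the 37 sequences, 34 had reads in all 30 libraries. The authors kept a sequence with at least 10 reads in 4 libraries of at least 1 group (3 libraries for CD12), and 26 of the 37 passed this in all 6 groups while 3 passed in only 1.

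Small RNA libraries were made from endometrium of Hampshire x Duroc gilts of 7 to 8 months of age from a single commercial herd. All 6 groups shared that background. Endometrium was taken post mortem from pregnant, inseminated animals on day 12 (PD12, n = 5), day 16 (PD16, n = 5) and day 20 (PD20, n = 6), and from cyclic animals on the same days of the estrous cycle (CD12, n = 4, CD16, n = 5, and CD20, n = 5). Conceptuses were flushed out on days 12 and 16, whereas on day 20 trophoblast and embryos were dissected off the implantation site. Each library came from 1 animal, and no animal was sampled on more than 1 day. The libraries held 2029729 to 6402731 reads (median 3111079), of which the annotated sequences took 75.3% to 87.2%. Levels are given as CPM, counts scaled to the library's reads on the annotated sequences after TMM scaling. The tissue was whole endometrium, so fewer cells of a type and less RNA per cell cannot be told apart.

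The miR-10 and miR-196 genes lie inside the HOX clusters, the gene arrays that pattern the body axis and that stay active in the adult reproductive tract. A miRNA selects its targets mostly through the seed, bases 2 to 8 from its 5′ end, so an isomiR that starts 1 base earlier or later carries another seed, while a change at the 3′ end leaves the seed as it was. miR-196 is known for cleaving or repressing HOX transcripts, and miR-10 for acting on HOX and other transcripts of growth control. In the RefSeq gene table of Sscrofa11.1, MIR10A stood between HOXB3 and HOXB5 on chromosome 12 and MIR10B between HOXD8 and HOXD3 on chromosome 15. MIR196A-1 stood between HOXB8 and HOXB13 on chromosome 12 and MIR196A-2 between HOXC10 and HOXC9 on chromosome 5. No gene named MIR196B was found there, so miR-196b, the only miR-196 among the listed sequences, was not placed. The reads were annotated by the authors without coordinates in the files used here, so names and neighbours only are given.

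The sequences that carry the results are written 5′ to 3′ with T for U as in the read files, with the seed in capitals. The canonical forms of the 5′ arms share 1 seed between miR-10a and miR-10b, and they are 1 base apart over 22 bases (T12A, counted from the 5′ end of miR-10a).
miR-10a-5p canonical: tACCCTGTagatccgaatttgt
miR-10b canonical: tACCCTGTagaaccgaatttgt
miR-10b 3′ ADD 1: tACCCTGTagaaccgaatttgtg
miR-10b 3′ DEL 1: tACCCTGTagaaccgaatttg
miR-10b 3′ DEL 2: tACCCTGTagaaccgaattt
Forms that began 1 base later are shown because they were the main source of a second seed, CCCTGTA, and because 1 of them changed with day.
miR-10a-5p 5′ DEL 1 3′ ADD 2: aCCCTGTAgatccgaatttgtgt
miR-10b 5′ DEL 1 3′ ADD 2: aCCCTGTAgaaccgaatttgtgt
miR-10b 5′ DEL 1 3′ DEL 1: aCCCTGTAgaaccgaatttg
Forms that began 1 base earlier were listed for miR-10a only, had the seed TACCCTG and are shown because the comparison of pregnant with cyclic animals over the 3 days, added after values were seen, called them.
miR-10a-5p 5′ ADD 1: aTACCCTGtagatccgaatttgt
miR-10a-5p 5′ ADD 1 3′ ADD 1: aTACCCTGtagatccgaatttgtg
miR-10a-5p 5′ ADD 1 3′ ADD 2: aTACCCTGtagatccgaatttgtgt
A single listed form of miR-10a-5p, 5′ DEL 2 3′ ADD 2, began 2 bases later and had the seed CCTGTAG. The other seeds belonged to miR-196b (AGGTAGT) and to the 3′ arm of miR-10a (AAATTCG).
miR-196b canonical: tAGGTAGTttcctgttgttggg
miR-196b 3′ DEL 1: tAGGTAGTttcctgttgttgg
miR-10a-3p canonical: cAAATTCGtatctaggggaat

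Some libraries stood apart before any comparison was made. PD20 replicate 1 held 636004 CPM on the 31 listed sequences of miR-143 and miR-145, which are abundant in smooth muscle and stroma, against 138143 CPM in the next PD20 library. The same library held 40166 CPM on the 6 listed sequences of miR-1 and miR-206, muscle miRNAs, against 8085 CPM in the next. In PD16 replicate 1 and CD16 replicate 3 the level of miR-10b was more than that of the other libraries of its group by a wide gap, as given below. PD20 replicate 3 and CD16 replicate 3 also stood apart in the reads that hold the common cores of miR-10a and miR-10b. The listed forms took 93.6% and 95.8% of their miR-10a core reads, against 77.2% to 85.3% in the other 28 libraries, and 95.7% and 96.8% of their miR-10b core reads, against 79.8% to 88.5%. Core reads with an unexpected base at position 12 made 0.0163% and 0.0193% in these 2 libraries and 0.0818% to 0.177% in the other 28. What set them apart was not tested. Several results that rest on them, but not the group levels, shares or ratios, are given below with and without them. Over all annotated sequences, libraries of a group had correlations of log2 CPM between 0.848 and 0.977 (median 0.936 over 61 pairs), and no pair was close enough to be 1 library counted more than once.

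miR-10a and miR-10b were among the most abundant small RNAs of this tissue. Canonical miR-10b ranked 3rd and canonical miR-10a-5p ranked 5th of all annotated sequences by mean CPM, at 62649 ± 50408 and 51895 ± 51474 CPM (SD, n = 30). The 37 sequences together took 15.8% ± 11.1 of the annotated reads (SD, n = 30), and miR-196b alone took 0.0131% of the annotated reads. The share ranged with group from 9.55% ± 5.99 in PD20 (n = 6) to 22.96% ± 13.7 in CD16 (n = 5), so the spread within a group was wide. Among the isomiRs of most interest here were miR-10b 3′ ADD 1 at rank 18 (7413 CPM) and miR-10a-5p 5′ DEL 1 3′ ADD 2 at rank 22 (6065 CPM), the most abundant isomiR of each miRNA, and miR-10b 3′ DEL 1 at rank 69 (895 CPM), with 8 other isomiRs of the 37 between ranks 22 and 69.

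Canonical miR-10a-5p measured 36349, 25755, 9392, 59494 and 32235 CPM in the 5 PD12 libraries and 106216, 11634, 19777, 8279 and 13761 CPM in PD16. In PD20 its lowest, median and highest levels were 9134, 18064 and 59816 CPM. In cyclic animals it measured 166554, 25957, 19176 and 117641 CPM in CD12, 45634, 56003, 226633, 100909 and 42070 CPM in CD16, and 60682, 90640, 99730, 20294 and 19001 CPM in CD20. The cyclic groups lay higher on each day, but the ranges of pregnant and cyclic animals overlapped on all 3 days, with PD16 replicate 1 above 4 of the 5 CD16 libraries.

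Canonical miR-10b, the form from the HOXD cluster, measured 55810, 36799, 19228, 87387 and 46826 CPM in PD12 and 122259, 18879, 26683, 14031 and 25245 CPM in PD16. Its lowest, median and highest levels in PD20 were 25560, 33025 and 66772 CPM. In cyclic animals it measured 146926, 40561, 33466 and 203103 CPM in CD12, 58368, 62631, 214531, 66622 and 35728 CPM in CD16, and 81486, 82057, 92276, 30141 and 36620 CPM in CD20. The same libraries were high for both miRNAs: over the 30 libraries, log2 levels of the canonical forms correlated with r = 0.946, a description that shares library and scaling between its points.

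**Figure D1:**
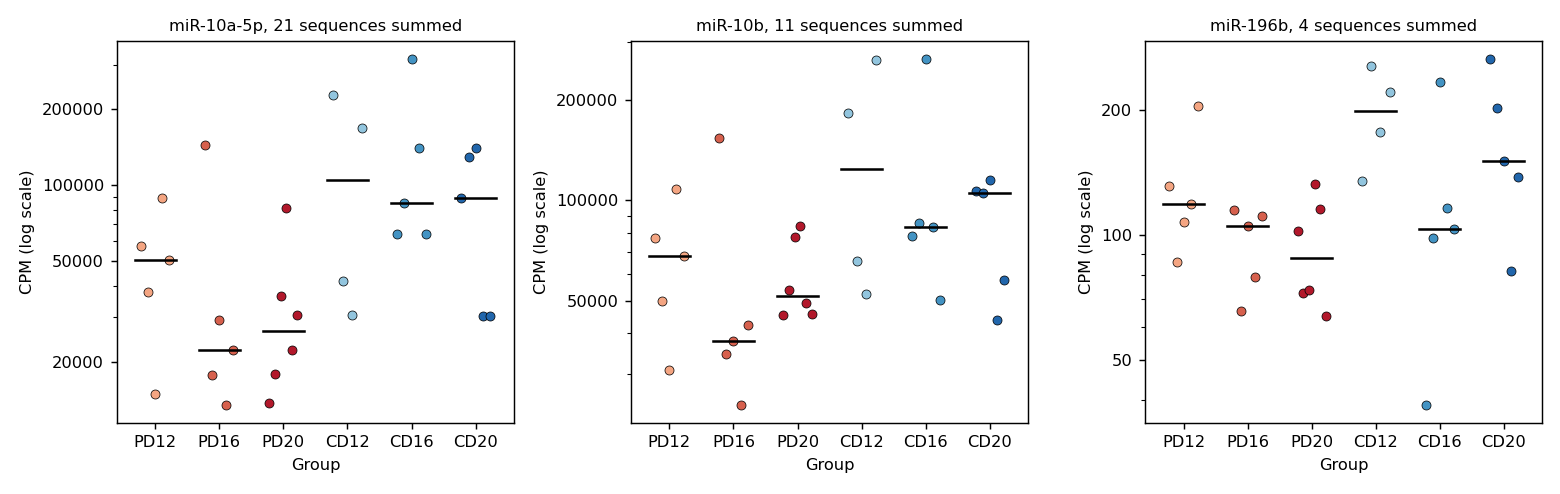
CPM (log scale) of miR-10a-5p, miR-10b and miR-196b in each of the 30 libraries by group, summed over all listed forms of each miRNA; points are libraries and bars are group medians. The 2 miR-10 panels have high single libraries in PD16 and CD16 and overlap between pregnant and cyclic groups on each day.

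miR-196b, from the HOXA cluster in other mammals, was a minor species. Its most abundant sequence was not the canonical form but the one lacking the last G, which averaged 70.5 ± 30.8 CPM against 39.2 ± 26.3 CPM for the canonical form (SD, n = 30). The 3′ DEL 1 form measured 80.1, 60.1, 56.8, 78.3 and 118 CPM in PD12, 51.2, 37.1, 63.5, 45.4 and 62.8 CPM in PD16, and 34.3, 45.3 and 70.1 CPM as the lowest, median and highest levels of PD20. In cyclic animals it measured 65.7, 154, 78.0 and 134 CPM in CD12, 23.1, 61.0, 124, 72.8 and 76.6 CPM in CD16, and 96.2, 85.0, 91.7, 38.4 and 67.1 CPM in CD20. All pairs of groups of the same day overlapped. miR-10a-3p, the strand that is usually discarded, was near the floor of the assay at 5.60 ± 3.63 CPM, and each library held on average 14474 reads of the 5′ arm for 1 read of the 3′ arm.

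Between days of pregnancy, the 2 sequences called among the 37 were both shortened forms of miR-10b. Calls came from edgeR's quasi-likelihood test fitted on the whole annotated list with Benjamini-Hochberg adjustment, at an adjusted p under 0.05 where log2FC, the log2 of the fold change, also passed 1 in either direction. Both later days shared 1 joint test against day 12. PD20 vs PD12 called 2 of the 37, both higher on day 20, where 0.802% of all annotated sequences were called and 0.687% were called higher. PD20 vs PD16 called the same 2 sequences, both higher, against 0.573% of all annotated sequences, all of these higher. PD16 vs PD12 called none of the 37 (0.229% of the list), and neither did CD16 vs CD12 (0.115%), CD20 vs CD12 (0.458%) or CD20 vs CD16 (0.458%). At an unadjusted p under 0.05, 13.5% of the 37 passed the joint test of days 16 and 20 against day 12 in pregnancy, where 18.7% of the list did. In the cycle 5.41% passed that joint test (23.9% of the list) and 8.11% passed CD20 vs CD16 (21.2% of the list), so these shares lay below those of the list.

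The first of the 2 was miR-10b 3′ DEL 1, which keeps the canonical seed. It measured 726, 540, 567, 601 and 736 CPM in PD12 and 631, 702, 493, 389 and 452 CPM in PD16, against a lowest, median and highest level of 948, 1372 and 2753 CPM in PD20. Every PD20 library lay above every PD12 and PD16 library. Reads of embryonic miR-302 were also found in all PD20 and in no PD12 or PD16 library, as given with the cell type markers, and their part in the difference was not tested. The log2FC was 1.30 (SE 0.309, 2.46-fold, adjusted p = 0.0277 in edgeR) for PD20 vs PD12 and 1.47 (SE 0.311, 2.77-fold, adjusted p = 0.0314 in edgeR) for PD20 vs PD16. Without PD20 replicate 1, the library rich in muscle miRNAs, the values were 1.39 (adjusted p = 0.0179) and 1.58 (adjusted p = 0.0180). The call against PD12 was lost when PD20 replicate 2, 3 or 5 was left out (adjusted p up to 0.111), and that against PD16 when 1 of 7 libraries was left out, PD16 replicates 2 to 5 and PD20 replicates 2, 3 and 5. With 1 library left out, the log2FC ran from 1.04 to 1.39 against PD12 and from 1.22 to 1.63 against PD16.

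The second was miR-10b 5′ DEL 1 3′ DEL 1, the same truncation on the later start site. It measured 29.7, 19.9, 21.7, 26.1 and 23.1 CPM in PD12 and 18.96, 21.8, 22.7, 10.8 and 14.3 CPM in PD16, and its lowest, median and highest levels in PD20 were 27.6, 50.5 and 81.8 CPM. PD20 lay above PD16 throughout and overlapped PD12 in a single PD20 library. The log2FC was 1.04 (SE 0.311, adjusted p = 0.0448 in edgeR) against PD12 and 1.42 (SE 0.318, adjusted p = 0.0414 in edgeR) against PD16. Against PD12 the call was lost in the contrast of day 20 alone (adjusted p = 0.0755 in edgeR), with the title block, with a minimum of 10 CPM and without any 1 of PD12 replicates 2 and 5 and PD20 replicates 2, 3 and 5. Against PD16 it was lost without any 1 of the same 7 libraries as for the first form. With 1 library left out, the log2FC of this second form ran from 0.83 to 1.18 against PD12 and from 1.21 to 1.58 against PD16. Both forms lost their calls with the replicate block and with all deposited reads as library size. miR-10b 3′ DEL 2, named after its values were seen, also lay higher in every PD20 library than in PD12 or PD16, with log2FC 0.84 (adjusted p = 0.0706 in edgeR) and 1.05 (adjusted p = 0.114 in edgeR), and was not called. In all, 2 of the 37 did not overlap between PD20 and PD12, both higher (2.18% of the list were higher without overlap), and 3 did not overlap between PD20 and PD16, all higher (1.15% of the list).

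**Figure D2:**
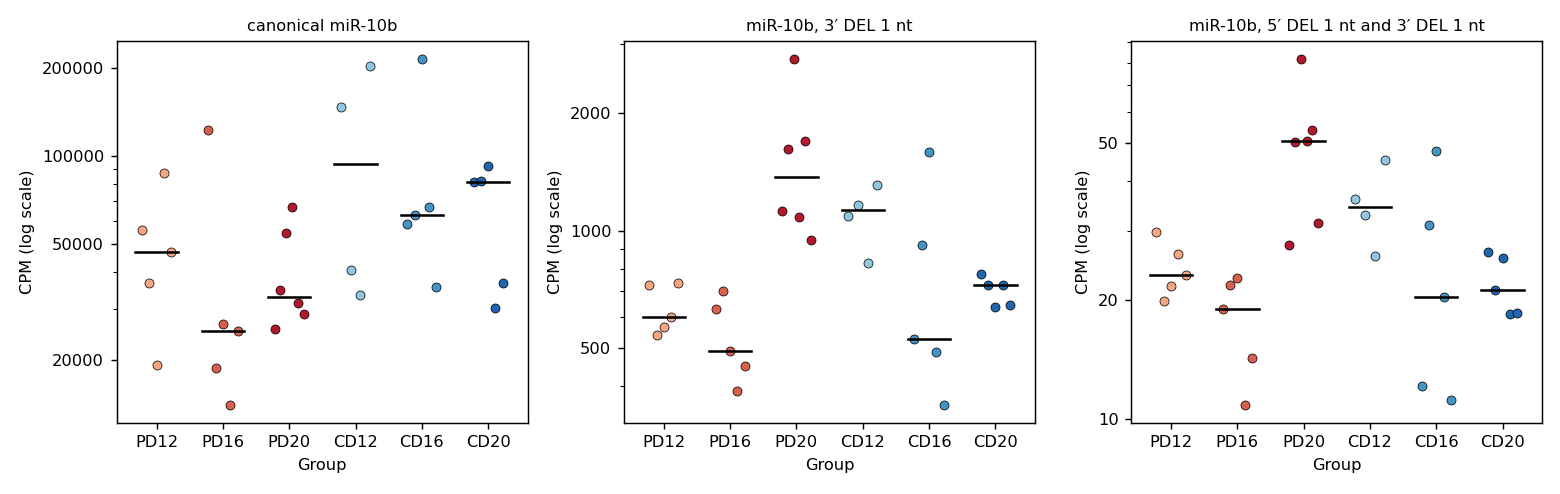
CPM (log scale) of canonical miR-10b and of the 2 shortened miR-10b forms that were called, in each library by group; bars are group medians. Canonical miR-10b in PD20 lies inside the range of PD12 and PD16, whereas the 3′ DEL 1 form lies above both in all 6 PD20 libraries.

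Other forms were read beside these. miR-10a-5p 5′ ADD 1 3′ ADD 2 had the most negative value of the 37 in PD20 vs PD12, a log2FC of -2.10 (SE 0.591, adjusted p = 0.0898 in edgeR's quasi-likelihood test), which was not called here but was called lower by DESeq2 and by edgeR's likelihood ratio test. Canonical miR-10b had a log2FC of -0.28 (SE 0.522, adjusted p = 0.920 in edgeR) in PD20 vs PD12 and -0.15 (SE 0.523, adjusted p = 0.921 in edgeR) in PD20 vs PD16. The 5 listed miR-10b forms with a shortened 3′ end had a median log2FC of 0.84 against PD12 and 1.05 against PD16, beside -0.01 and -0.06 over all annotated sequences. The 9 such forms of miR-10a had medians of 0.35 and 0.17, with none called, and the most abundant of them, 3′ DEL 1, had a log2FC of 0.79 (SE 0.390, adjusted p = 0.310 in edgeR) against PD12. In the cycle, 2 sequences lay lower on day 20 than on day 12 without overlap but were not called: miR-10a-5p 5′ ADD 1 3′ ADD 2 at a log2FC of -2.22 (SE 0.587, adjusted p = 0.121 in edgeR) and miR-10b 3′ DEL 1 at -0.65 (adjusted p = 0.479 in edgeR), where 1.6% of all annotated sequences were lower without overlap.

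Pregnant and cyclic animals were compared on each day. None of the 37 was called in PD12 vs CD12, PD16 vs CD16 or PD20 vs CD20, where 0.0%, 0.0% and 1.49% of all annotated sequences were called; 10, 15 and 17 of the 37 had an unadjusted p under 0.05, beside 6.07%, 10.9% and 28.5% of the list. The fitted differences nevertheless lay on 1 side. On day 12, 37 of 37 were lower in pregnancy (median log2FC -0.88), on day 16, 36 of 37 (median -1.07, with miR-196b 3′ DEL 2 at 1.22 the exception) and on day 20, 30 of 37 (median -0.85), while 47.4%, 48.7% and 51.4% of all annotated sequences were lower. Of the 37, 29 were lower on all 3 days, beside 13.3% of the list. These sequences are forms of 3 miRNAs, and the levels of miR-10a and miR-10b moved together between libraries, so their counts are not independent of each other. The forms of miR-10a-5p were lower in 21, 21 and 20 of 21 cases.

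Canonical miR-10a-5p had a log2FC of -1.25 (SE 0.635, adjusted p = 0.678 in edgeR) on day 12, -1.59 (SE 0.699, adjusted p = 0.412 in edgeR) on day 16 and -1.28 (SE 0.545, adjusted p = 0.136 in edgeR) on day 20, none of them past the threshold. Canonical miR-10b had -1.02, -1.12 and -0.67 on the 3 days, and canonical miR-196b -0.99, -0.47 and -1.11. Single libraries moved these values. On day 12, leaving out 1 library gave -1.68 to -0.64 for canonical miR-10a-5p (without PD12 replicate 4 and CD12 replicate 1) and -1.43 to -0.53 for canonical miR-10b (without PD12 replicate 4 and CD12 replicate 4), none called. On day 16, the values were -0.93 and -0.45 without CD16 replicate 3. Without PD16 replicate 1, canonical miR-10a-5p had a log2FC of -2.82 (adjusted p = 0.0100 in edgeR) and canonical miR-10b -2.05 (adjusted p = 0.0237 in edgeR), and 16 of the 37, all lower in pregnancy, were called beside 4.12% of all annotated sequences. On day 20, 8 of the 37 (7 of them lower) were called without PD20 replicate 4, beside 13.3% of the list. Without CD20 replicates 4 and 5 in turn, 5 and 2 were called, all lower, beside 11.9% and 6.76% of the list. No label gives a reason to set any of these libraries aside.

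Of the 5 listed miR-10a-5p forms with the earlier start, 1 did not overlap between pregnant and cyclic animals on days 12 and 16. miR-10a-5p 5′ ADD 1 3′ ADD 1 measured 12.2, 9.28, 7.85, 8.14 and 16.7 CPM in PD12 against 18.6, 36.4, 22.001 and 29.7 CPM in CD12. On day 16 it measured 6.45, 4.72, 6.71, 3.72 and 8.09 CPM in PD16 against 8.88, 14.4, 27.8, 15.8 and 8.77 CPM in CD16. Every pregnant library lay below every cyclic library on both days, with log2FC of -1.30 (SE 0.383, adjusted p = 0.678 in edgeR) and -1.37 (SE 0.426, adjusted p = 0.281 in edgeR). On day 20 the groups overlapped, with 3.32, 5.86 and 8.87 CPM as the lowest, median and highest levels of PD20 against 21.2, 14.8, 10.7, 7.24 and 9.05 CPM in CD20 (log2FC -1.12, adjusted p = 0.0967 in edgeR). miR-10b 3′ DEL 1 was the other sequence below all cyclic libraries on day 12, at a log2FC of -0.78 (adjusted p = 0.678 in edgeR), so 2 of the 37 did not overlap on day 12 and 1 on day 16, where 0.687% and 1.03% of all annotated sequences were lower without overlap.

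A comparison of pregnancy with the cycle averaged over the 3 days, in 1 fit of all 30 libraries, was added after these values were seen and reuses the same libraries, so it is no independent evidence. It called 6 of the 37, all forms of miR-10a-5p and all lower in pregnancy, beside 1.83% of all annotated sequences called and 1.15% called lower. They were 5′ ADD 1 3′ ADD 1 (log2FC -1.26, SE 0.218, adjusted p = 0.00186 in edgeR), 5′ ADD 1 3′ ADD 2 (-1.60, SE 0.348, adjusted p = 0.0123), 5′ ADD 1 (-1.20, adjusted p = 0.0261), 3′ ADD 2 (-1.53, adjusted p = 0.0349), 5′ ADD 1 3′ DEL 2 (-1.17, adjusted p = 0.0446) and 5′ DEL 1 3′ ADD 2 (-1.55, adjusted p = 0.0482). Canonical miR-10a-5p, at -1.39 (SE 0.402, adjusted p = 0.0515 in edgeR), and canonical miR-10b, at -0.96 (SE 0.329, adjusted p = 0.106 in edgeR), were not called. With the title block, the replicate block or all deposited reads as library size, 2 of the 37 were called, 5′ ADD 1 3′ ADD 1 and 5′ ADD 1 3′ ADD 2, beside 1.26%, 0.802% and 1.26% of the list. Without PD20 replicate 1, 3 of the 6 were called, those with 5′ ADD 1 and a 3′ end that was not shortened, beside 1.37% of the list. Without PD20 replicate 3 and CD16 replicate 3, 5′ ADD 1 3′ ADD 1 (-1.13, adjusted p = 0.00595 in edgeR) and 5′ ADD 1 3′ ADD 2 (-1.44, adjusted p = 0.0352) were called, beside 0.802% of the list.

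**Figure D3:**
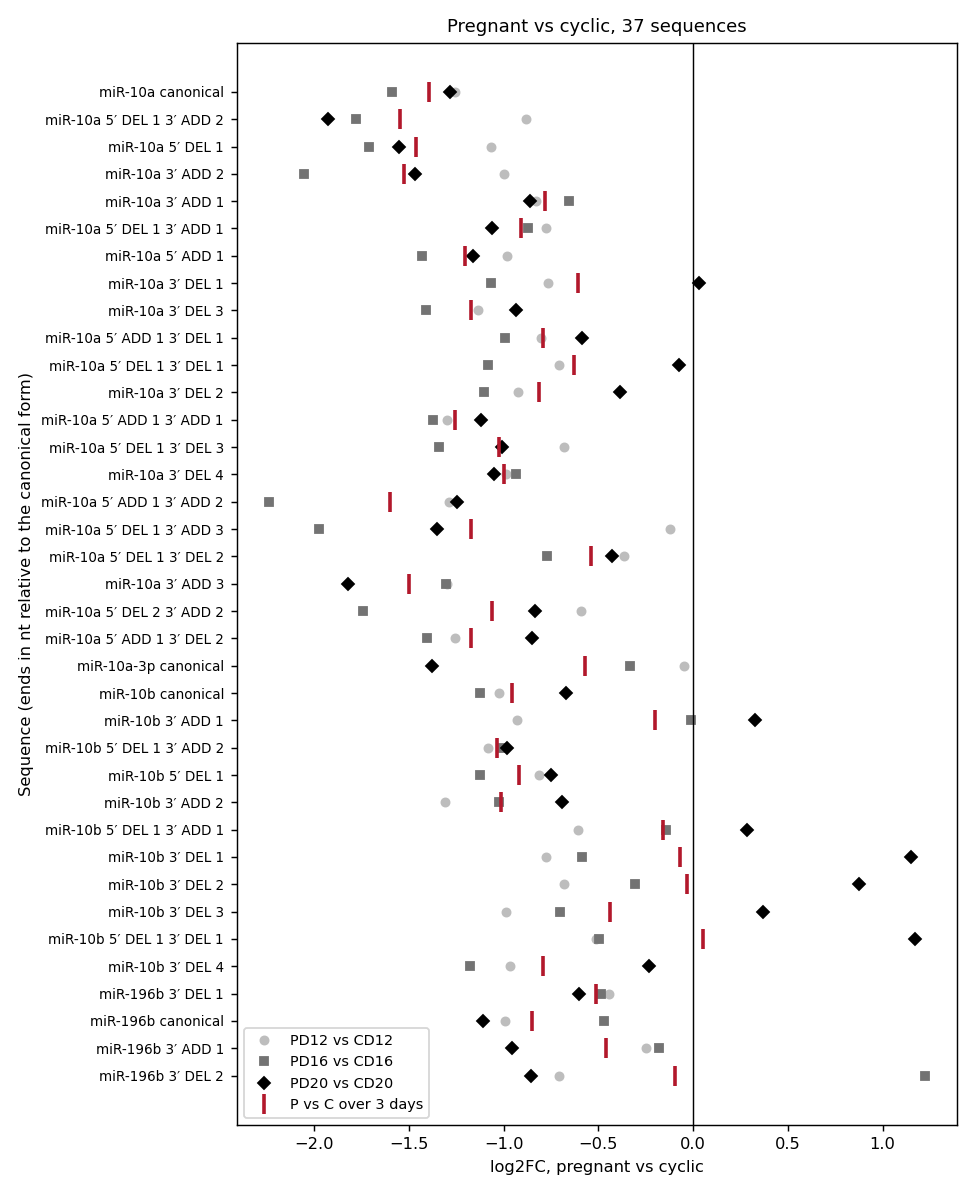
Log2FC of pregnant vs cyclic animals for each of the 37 sequences, with a symbol for each day and a red bar for the fit over the 3 days. Nearly all values lie left of 0, the day 20 symbols of the 2 called miR-10b forms lie at 1.15 and 1.17, and miR-196b 3′ DEL 2 on day 16 lies at 1.22.

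The values of miR-10b 3′ DEL 1 in pregnancy vs the cycle had another sign on day 20 than on the earlier days, with no day past the threshold in the fits by day. The log2FC was -0.78 on day 12 and -0.58 on day 16 (adjusted p = 0.678 and 0.657 in edgeR), and on day 20 every PD20 library lay above the CD20 values of 775, 727, 637, 728 and 644 CPM (log2FC 1.15, SE 0.340, adjusted p = 0.0630 in edgeR). In CD12 it measured 1092, 1164, 828 and 1310 CPM and in CD16 528, 917, 1591, 491 and 357 CPM. miR-10b 5′ DEL 1 3′ DEL 1 also lay higher in all PD20 than in all CD20 libraries, which held 26.5, 21.2, 25.6, 18.4 and 18.6 CPM (log2FC 1.17, SE 0.348, adjusted p = 0.0630 in edgeR); 2.63% of all annotated sequences were higher without overlap in this comparison. The difference of the P vs C difference between days was tested by an interaction term in 1 fit of all 30 libraries. For miR-10b 3′ DEL 1, day 20 less day 16 gave 1.67 on the log2 scale (SE 0.466, adjusted p = 0.0452 in edgeR), the single sequence of the 37 past the threshold where 2.41% of all annotated sequences were. Day 20 less day 12 gave 1.92 (SE 0.479, adjusted p = 0.0577 in edgeR; 0.115% of the list past the threshold). The day 20 less day 16 term called none of the 37 without PD20 replicate 1 (1.84, adjusted p = 0.0509 in edgeR), with the replicate block (1.64, adjusted p = 0.117), with the title block (1.63, adjusted p = 0.0661) or with all deposited reads as library size (1.35, adjusted p = 0.107), where 0.229%, 0.0%, 0.916% and 2.29% of the list were past the threshold. Without PD20 replicate 3 and CD16 replicate 3, day 20 less day 16 gave 1.03 (adjusted p = 0.177 in edgeR; 0.0% of the list past the threshold), and day 20 less day 12 gave 1.69 (adjusted p = 0.0478 in edgeR; 0.344% of the list).

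The ends of the reads were described as shares within each miRNA. Of miR-10a-5p reads, 18.7% ± 1.58 began 1 base later than the canonical form and 0.881% ± 0.215 began 1 base earlier (SD, n = 30), so 19.6% ± 1.58 of its reads had another seed. Of miR-10b reads 13.4% ± 0.973 began 1 base later. The earlier start was not listed for miR-10b at all. Among all deposited reads that hold the common core of miR-10b, 598 of 7411076 began 1 base early, a mean of 0.00753% per library, against 50449 of 6610674 for miR-10a (0.895%). Start sites of miR-196b did not vary in the list, and 3 of 16982 core reads began 1 base early.

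At the 3′ end, 75.3% of miR-10a-5p reads and 73.2% of miR-10b reads ended as the canonical form does, 23.7% and 25.2% were longer, and 1.05% and 1.55% were shorter (means of 30 libraries). In core reads made of the canonical form and 1 further base, that base was mostly G, as in the listed forms. Reads with more bases added or with another start were left out of this count. Canonical miR-10b plus G made 10.1% of core reads, plus A 0.780%, plus T 0.371% and plus C 0.0351%. For miR-10a the same shares were 5.06%, 0.745%, 0.545% and 0.0405%. Of miR-10a-5p reads that began 1 base late, 61.6% ± 6.72 were lengthened at the 3′ end, against 15.1% ± 3.94 of reads with the canonical start. For miR-10b the shares were 77.0% ± 6.31 and 17.2% ± 8.19 (SD, n = 30). Late starts and late ends thus came together on the same reads. miR-196b was different again: 63.6% ± 8.95 of its listed reads were shortened and 7.99% ± 2.48 lengthened. That share is of listed reads only, and 58.2% of miR-196b core reads fell on its 4 listed forms. The listed forms of miR-10a and miR-10b held 82.3% and 85.4% of their core reads. By length alone, whatever the bases after the core, 39.5% of all miR-196b core reads were shorter than the canonical form. A shortened read with other bases added can be missed by length, so this share is not like that of the listed reads.

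**Figure D4:**
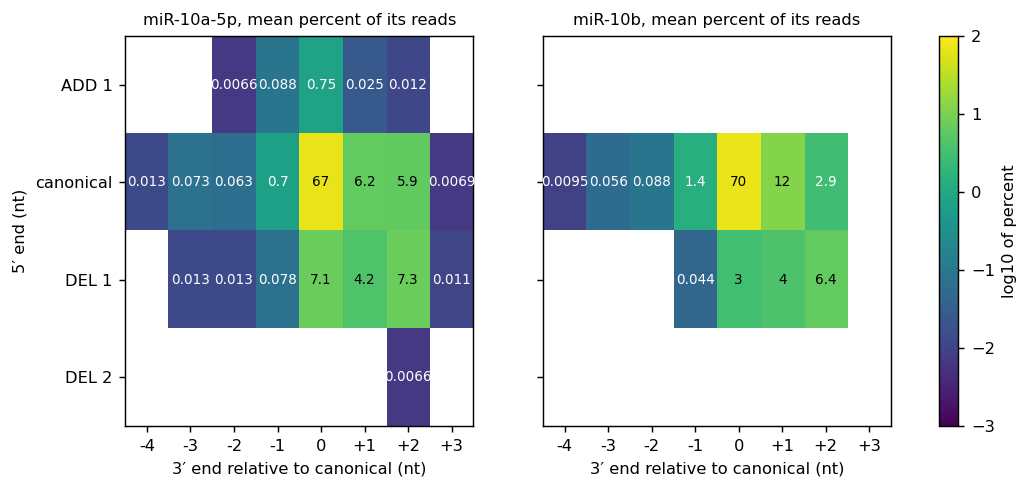
Mean percent of the reads of miR-10a-5p (left) and miR-10b (right) at each listed combination of 5′ and 3′ end, in nt relative to the canonical form, over 30 libraries (colour is log10 of the percent, white means not listed). Reads with a 5′ DEL 1 start peak at 3′ ADD 2 in both miRNAs, and the ADD 1 line is filled for miR-10a only.

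IsomiR use was then compared as log2 ratios of reads between classes of ends, with limma over all 248 miRNA and class combinations with enough reads. In PD20 vs CD20, 2 of the 8 classes tested of these miRNAs were called, where 6.85% of all 248 were and 9.35% of the 107 with a shortened 3′ end. Of those 107, 68 had a difference above 0 (median 0.28), and 9 of the 10 called were higher. Shortened against canonical 3′ ends of miR-10b were higher by 1.62 on the log2 scale (SE 0.361, adjusted p = 0.0193 in limma), and those of miR-10a-5p by 1.07 (SE 0.271, adjusted p = 0.0355 in limma). In the libraries, the shortened share of miR-10b was 1.53% at its lowest, 3.07% in the middle and 3.91% at its highest in PD20, and 0.815%, 0.799%, 0.677%, 1.90% and 1.27% in the 5 CD20 libraries. The groups overlapped through CD20 replicate 4 and PD20 replicate 4. The shortened share of miR-10a-5p ran from 1.21% to 2.34% in PD20, against 0.725%, 0.627%, 0.713%, 1.402% and 0.949% in CD20. Without PD20 replicate 1 the miR-10b difference was 1.58 (adjusted p = 0.0415 in limma) and the miR-10a-5p difference 1.03 (adjusted p = 0.0823 in limma). Without PD20 replicate 3 they were 1.55 (adjusted p = 0.0501 in limma) and 0.99 (adjusted p = 0.0845 in limma). With the replicate block neither class was called, and with the title block that of miR-10b alone was.

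**Figure D5:**
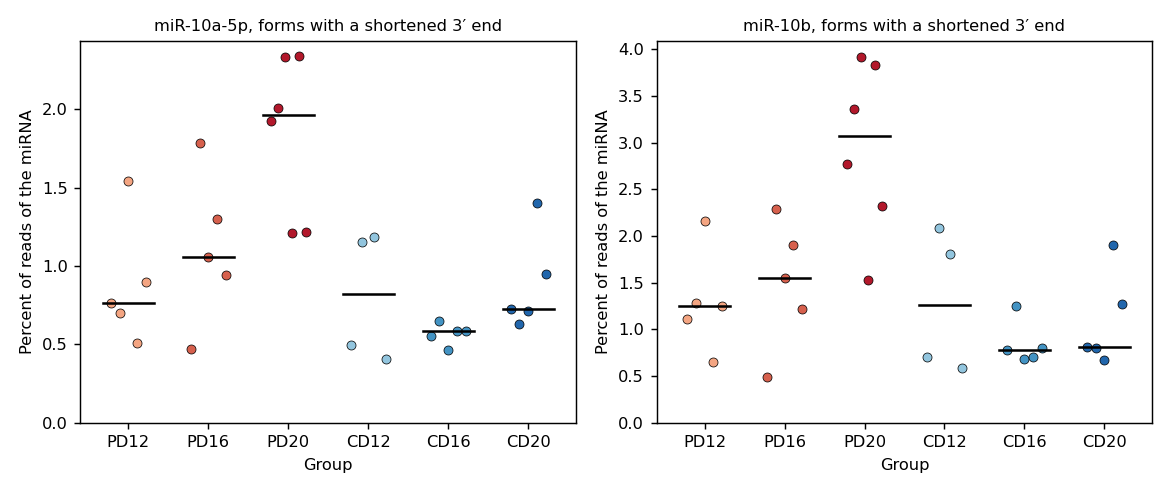
Percent of the reads of miR-10a-5p (left) and miR-10b (right) on listed forms with a shortened 3′ end, in each library by group; bars are group medians. PD20 has the highest median in both panels, and 4 of its 6 libraries exceed all CD20 libraries for miR-10a-5p.

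Late and early start sites of miR-10a-5p against its canonical start were lower in PD20 than in CD20 by 0.34 on the log2 scale (SE 0.104, adjusted p = 0.0909 in limma), which was not called. None of the classes of these miRNAs was called in the other comparisons, where 2.02% (PD16 vs PD12), 2.02% (PD20 vs PD12), 0.0% (PD20 vs PD16), 1.21% (CD16 vs CD12), 1.21% (CD20 vs CD12), 0.806% (CD20 vs CD16), 0.0% (PD12 vs CD12) and 0.0% (PD16 vs CD16) of the 248 were. Against PD12, shortened 3′ ends in PD20 had differences of 1.34 (SE 0.450, adjusted p = 0.152 in limma) for miR-10b and 1.03 (SE 0.348, adjusted p = 0.165 in limma) for miR-10a-5p. The shares also moved with the level of the miRNA. Over the 30 libraries, the log2 share of shortened forms correlated with the log2 summed level at r = -0.831 for miR-10a-5p and -0.693 for miR-10b, and the share of forms with 1 base added at the 3′ end at r = -0.919 and -0.819, whereas forms with 2 added bases had r = 0.610 and 0.494. Share and level hold the same reads, and PD20 had lower summed levels than CD20 in both miRNAs, so the part of the level in the PD20 vs CD20 difference was not tested.

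The balance of miR-10a-5p and miR-10b varied widely between animals. The ratio of miR-10a-5p to miR-10b reads was 0.787 ± 0.323 (SD, n = 30) and ran from 0.303 in PD20 replicate 1 to 1.69 in CD16 replicate 4. Group means were 0.710 ± 0.133 in PD12, 0.661 ± 0.189 in PD16 and 0.534 ± 0.251 in PD20, and 0.775 ± 0.308 in CD12, 1.19 ± 0.328 in CD16 and 0.901 ± 0.318 in CD20. On day 16 the means of PD16 and CD16 lay further apart than the sum of their SD, although the highest PD16 library (0.940) lay above the lowest CD16 library (0.817). No test of this ratio was made. Since a single base parts the miRNAs, misread bases could move reads from one to the other: core reads with neither of the 2 expected bases at position 12 made at most 0.177% of core reads in a library, and least in PD20 replicate 3 and CD16 replicate 3, as given above.

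Summed over all forms, miR-10a-5p had log2FC of -1.29, -1.66 and -1.09 in pregnancy vs the cycle on days 12, 16 and 20 (adjusted p = 0.679, 0.475 and 0.186 in edgeR), miR-10b -1.12, -1.07 and -0.31, and miR-196b -0.64, -0.51 and -0.64. None was called, where 0.0%, 0.0% and 6.53% of the 245 miRNA sums were. In the fit over the 3 days the sums gave -1.34 (SE 0.397, adjusted p = 0.0825 in edgeR) for miR-10a-5p, -0.83 (adjusted p = 0.121) for miR-10b and -0.60 (adjusted p = 0.119) for miR-196b, where 0.816% of sums were called.

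Sequence relatives of miR-10 outside the HOX clusters were read from the same fits. The 30 listed sequences of miR-99a, miR-99b and miR-100 had no call in any of the 9 comparisons. Their median log2FC in pregnancy vs the cycle was 0.10 on day 12, -0.50 on day 16 and -0.55 on day 20, beside -0.88, -1.07 and -0.85 for the 37, and no test of this difference was made. By a fixed rule, the 3 canonical sequences outside the 37 with the highest correlation of log2(CPM + 1) over the 30 libraries were named from 174 candidates. For miR-10a-5p they were miR-191 (r = 0.818), miR-99b (r = 0.695) and miR-500 (r = 0.682), and for miR-10b miR-191 (r = 0.745), miR-144 (r = 0.676) and miR-450a (r = 0.645). Canonical miR-196b was closest to miR-491 (r = 0.831), miR-574 (r = 0.820) and miR-450a (r = 0.803) and less close to canonical miR-10a-5p (r = 0.527) and miR-10b (r = 0.590).

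Markers of the cell types that an endometrial sample could hold were summed in each library. All 7 epithelial roots of the list were found (47 sequences, miR-200c the most abundant), at 12606, 13213 and 11744 CPM in PD12, PD16 and PD20 and 9830, 13309 and 8377 CPM in CD12, CD16 and CD20 (group means). Both smooth muscle and stroma roots were found (31 sequences, miR-143-3p the most abundant), at 105057, 77816 and 192335 CPM in the pregnant and 147036, 116387 and 99625 CPM in the cyclic groups. The PD20 median was 112963 CPM, with replicate 1 at 636004 CPM. Endothelial miR-126 (17 sequences) measured 3226, 3406 and 3913 CPM in the pregnant groups and 2602, 3197 and 4604 CPM in the cyclic groups. The 3 erythrocyte roots (16 sequences, miR-451 the most abundant) measured 1199, 1421 and 2190 CPM in pregnancy and 972, 1446 and 1076 CPM in the cycle.

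Other lists were smaller. Of 4 leukocyte roots 3 were found (9 sequences, miR-142 the most abundant; miR-223 was not listed), at 55.8, 83.2 and 110 CPM in the pregnant groups and 54.7, 48.2 and 122 CPM in the cyclic groups. Of 4 muscle roots 2 were found (6 sequences, miR-1 the most abundant, with miR-133a and miR-133b not listed), at 3073, 2454 and 9963 CPM in pregnancy and 2401, 5376 and 3058 CPM in the cycle. Single libraries raised these means, and the group medians were 2050, 2008 and 3838 CPM in pregnancy and 1706, 2711 and 2039 CPM in the cycle. None of the 17 embryonic and trophoblast roots was found by name, but 17 listed sequences carry no miRNA name, and 1 of these, given by an Ensembl gene number, equals the sequence of the study's miR-302 assay (looked up after values were seen). miR-302 is a miRNA of early embryonic cells. It had 7, 4, 11, 117, 48 and 121 reads in PD20 replicates 1 to 6 (2.44, 2.37, 4.57, 39.3, 17.1 and 41.2 CPM), 2 reads in CD20 replicate 1, 1 in CD20 replicate 5 and none in the other 22 libraries. An embryonic miRNA was thus measured in every PD20 library. In the same order of replicates, miR-10b 3′ DEL 1 measured 1123, 1621, 2753, 1082, 1696 and 948 CPM. Epithelial and stromal markers of endometrium were thus present in all groups. PD20 replicate 1 held the highest muscle and smooth muscle levels of its group, and the values of miR-10b 3′ DEL 1 without it are given above. The part of any cell type, muscle and embryonic cells included, in the differences of miR-10 was not tested.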

How the data were processed

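Small RNA libraries were sequenced in 3 pools, and the pool of a library is not given in the sources used here. The authors filtered the reads by quality and deposited, per library, each distinct read with its count. Annotated sequences and names were taken from the authors' list of annotated sequences, made with BLAST against miRBase and other databases, and exact matches were counted in the deposited reads. The members and lists were chosen with earlier results of these data known.

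Groups followed the labels, and p-values measure the spread between animals. Counts were tested with edgeR 4.0.16 in R 4.3.3 (TMM scaling, prior count 0.125, quasi-likelihood test, Benjamini-Hochberg over the whole list), called at adjusted p under 0.05 and absolute log2FC over 1 (interaction at adjusted p under 0.05). IsomiR use was tested with limma 3.58.1 on log2 ratios with 0.5 reads added, for classes with a mean of at least 10 reads. Scripts were tested on simulated data. Reads had no molecular identifiers.

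The text names the canonical forms, the most abundant isomiR of each miRNA and of each shifted start, every member called, and in each comparison the members of largest change that did not overlap. Alternatives were DESeq2 1.42.0, a likelihood ratio test, RLE factors, all reads as library size, a minimum of 10 CPM, a single fit, a single contrast, a replicate block, a block by title number (3 blocks of 12), and each library left out. miR-196a and miR-10b-3p were not analysed here.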

Additional observations from a re-analysis of the deposited data

Results flagged for a closer look

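Single libraries far from the rest of their group, by Dixon's criterion at the 95% level, were found in 19 of 114 groups of values tested. That level holds for independent, normally distributed values. CPM were taken without a log here, and summed and canonical levels share reads, so the count is not set against a chance rate. PD16 replicate 1 held 144733 CPM of summed miR-10a-5p (next 29262 CPM) and 153948 CPM of summed miR-10b (next 42240 CPM), with 106216 and 122259 CPM of the canonical forms, and the lowest shortened share of miR-196b at 47.7% (next 70.0%). PD20 replicate 4 held 81369 CPM of summed and 59816 CPM of canonical miR-10a-5p. CD16 replicate 3 held 266759 CPM of summed and 214531 CPM of canonical miR-10b, both the highest of CD16. The share of miR-10b reads with a shifted 5′ end was highest of CD12 in replicate 3 at 13.3%, and the share with a shortened 3′ end was highest of CD16 in replicate 2 at 1.25%. The ratio of miR-10a-5p to miR-10b was lowest of PD12 in replicate 3 at 0.479 and highest of CD12 in replicate 1 at 1.24.

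Marker lists had outlying libraries too. The smooth muscle and stroma list reached 636004 CPM in PD20 replicate 1. The muscle list reached 8204 CPM in PD12 replicate 3, 40166 CPM in PD20 replicate 1, 4581 CPM in CD12 replicate 3, 16749 CPM in CD16 replicate 5 and 8750 CPM in CD20 replicate 4, each the highest of its group.

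The pregnancy difference of miR-10b 3′ DEL 1 differed between days 20 and 16 by 1.67 on the log2 scale (adjusted p = 0.0452 in edgeR's quasi-likelihood interaction test, from log2FC of -0.58 on day 16 and 1.15 on day 20 in the fits by day). It was the single sequence of the 37 past the threshold, where 2.41% of the list were. None of the 37 passed with the replicate block, the title block or all deposited reads as library size. The same held without PD20 replicate 1, and without PD20 replicate 3 and CD16 replicate 3, with the values given above. Reads of miR-10b with 1 base added at the 5′ end, which the authors' list does not hold, made 0.00753% of its core reads.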

How the results depend on the processing

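Every value is limited by 4 to 6 animals a group, and low forms by depth. The counts of the 37 called changed under these alternatives, and the cause was not tested. With DESeq2 and with the likelihood ratio test PD16 vs PD12, CD20 vs CD12 and PD16 vs CD16 each called 1 (miR-10a-5p 5′ ADD 1 3′ ADD 2; 0.573% to 6.41% of the list), PD20 vs PD12 called 3 (that sequence, lower, beside the 2 shortened miR-10b forms; 5.27% of the list), PD20 vs PD16 called 3 (these 2 and miR-10b 3′ DEL 2; 1.72% and 2.41%), and PD20 vs CD20 called 8 and 6 beside 15.01% and 14.2% of the list. A single fit of all libraries called 4 in PD20 vs CD20, the 2 shortened miR-10b forms higher and 2 miR-10a-5p forms lower, beside 11.2% of the list. PD20 vs PD12 called 1 with a minimum of 10 CPM, with the single contrast and with the title block (2.19%, 2.86% and 0.802% of the list), and 0 with all deposited reads as library size (0.229%). PD20 vs PD16 also called 0 with that library size (0.229%). With the replicate block both PD20 comparisons called 0, beside 0.344% of the list (miR-10b 3′ DEL 1 at a log2FC of 1.35, adjusted p = 0.0520, against PD12). Deviations of same-numbered libraries had a median correlation of -0.037 over 70 pairs, from -0.697 to 0.709. It was 0.003 over 304 pairs with other numbers. The pairs share libraries and spread widely, so these values do not settle whether the numbers paired the samples. Pregnancy vs the cycle over the 3 days called 11 with the likelihood ratio test (3.09% of the list) and 2 with all deposited reads, the replicate block or the title block (1.26%, 0.802% and 1.26%); miR-10a-5p 5′ ADD 1 3′ ADD 1 and 5′ ADD 1 3′ ADD 2 were called under all 8 settings. The interaction of day 20 less day 12 called 1 with the likelihood ratio test (1.83% of the list), and day 20 less day 16 called 2 (5.38%), against 0 with all deposited reads, the replicate block or the title block (2.29%, 0.0% and 0.916%).

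Classes of isomiR use called in PD20 vs CD20 were 0 with the replicate block and 1 with the title block, where the main fit called 6.85% of the 248. Shares of the 248 with the blocks are not given, so this loss is not read as particular to these classes. The shortened miR-10b class had 1.67 with the block, and that of miR-10a-5p 1.17 with the block and 1.05 with the title block, none called. Shifted starts of miR-10a-5p were called at -0.34 with a minimum of 100 reads. Over all core reads, classed by length alone, the miR-196b shares were 39.5% shorter and 18.8% longer than the canonical form.

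Leaving out 1 library gave 0 to 1 called in PD16 vs PD12 (1 without PD16 replicate 1, beside 1.26% of the list). PD20 vs PD12 ran from 0 to 2. It called 0 without PD20 replicate 2, 3 or 5 (0.229% of the list each) and 1 without PD12 replicate 2 or 5 (0.573% and 0.344%). PD20 vs PD16 ran from 0 (0.115% to 0.344% of the list) to 3 (without PD20 replicate 6, beside 0.916%). PD16 vs CD16 ran from 0 to 16 (16 without PD16 replicate 1, beside 4.12%). PD20 vs CD20 ran from 0 to 8 (8 with PD20 replicate 4 left out, 5 and 2 with CD20 replicates 4 and 5 left out, beside 13.3%, 11.9% and 6.76% of the list). Classes of use called were 0 to 3 in PD16 vs CD16 and 0 to 2 in PD20 vs CD20, where the full fits called 0.0% and 6.85% of the 248. Shares of the 248 without each library are not given, so these counts are not read as particular to these miRNAs. In PD20 vs CD20 the differences ran from 1.44 to 1.87 for shortened miR-10b, 0.95 to 1.26 for shortened miR-10a-5p and -0.36 to -0.31 for its shifted starts. The ratio of miR-10a-5p to miR-10b ran from 0.756 to 0.804. Summed miR-10a-5p ran from -1.69 to -0.67 in PD12 vs CD12, -2.95 to -0.88 in PD16 vs CD16 and -1.55 to -0.82 in PD20 vs CD20. Summed miR-10b ran from -1.44 to -0.66 in PD12 vs CD12, -1.95 to -0.30 in PD16 vs CD16 and -0.47 to -0.17 in PD20 vs CD20. Summed miR-196b ran from -0.64 to 0.11 in PD16 vs CD16, the sign turning to 0.11 without CD16 replicate 3. Without PD20 replicate 1, chosen after seeing the data like all settings of the fits over the 3 days and of the interaction, those fits called 3 (1.37% of the list) and 0 (at most 0.229%). Without PD20 replicate 3 and CD16 replicate 3, the fit over the 3 days called 2 (0.802%), day 20 less day 12 called 1 (0.344%) and day 20 less day 16 called 0 (0.0%).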
